A study of Saccharomyces cerevisiae with 16 samples.

Results

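The expression of 10 genes of phosphate acquisition and polyphosphate synthesis in Saccharomyces cerevisiae was followed across 2 strains, 2 carbon sources and 2 nutrient limitations. They were PHO84 (YML123C), PHO89 (YBR296C), SPL2 (YHR136C), PHO5 (YBR093C), PHO3 (YBR092C), PHO8 (YDR481C), VTC1 (YER072W), VTC2 (YFL004W), VTC3 (YPL019C) and VTC4 (YJL012C). They were chosen by gene symbol, and each was represented by 1 of the 5716 probe sets on the array, of which 5498 carried a gene symbol. Yeast was grown in chemostats to a steady state, and biotin-labelled cRNA from total RNA was hybridised to 16 arrays. The labels name a reference strain, SCE090, and a mutant strain, SCE088, without giving the mutated gene. Both strains grew on glucose or on ethanol. Either that carbon source limited growth, with ammonium sulfate in supply, or ammonium sulfate limited growth. This gave 8 groups of 2 arrays each. The labels name no phosphate limitation. They also do not say whether both arrays of a group stem from independent cultures, so p-values measure only the spread between these arrays, which may be technical.

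In yeast the transcription factor Pho4 activates the phosphate starvation genes. While phosphate is plentiful, the cyclin-dependent kinase Pho85 with its cyclin Pho80 holds Pho4 inactive, and when phosphate becomes scarce the inhibitor Pho81 blocks this kinase. The response raises phosphate uptake at the plasma membrane, releases phosphate from organic esters through secreted and vacuolar phosphatases, and adjusts the polyphosphate store of the vacuole, which the vacuolar transporter chaperone (VTC) complex synthesises.

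Marker genes were set against the labelled conditions. DAL80, a regulator of nitrogen-repressed genes, was higher under nitrogen limitation than under carbon limitation by 2.57 on the log2 scale in the reference strain on glucose and by 1.27 on ethanol, and by 2.43 and 0.39 in the mutant. MEP2, an ammonium permease, and GAP1, the general amino acid permease, were called higher on glucose in both strains. On ethanol MEP2 was called in the reference strain (0.21) and not in the mutant (0.08), and GAP1 in neither (0.16 and 0.04). These nitrogen markers also differed between the carbon-limited groups. In the reference strain DAL80, MEP2 and GAP1 were called higher in the ethanol-limited than in the glucose-limited cultures, by 0.83, 0.80 and 0.46. In the mutant DAL80 (1.36) and MEP2 (0.60) were called there, and GAP1 (0.17) was not. ICL1, the isocitrate lyase of the glyoxylate cycle, averaged 14.46 to 14.62 log2 units in the 4 ethanol groups and 11.27 to 12.70 in the 4 glucose groups. PCK1, also taken as an ethanol marker, was called higher on ethanol in each comparison with glucose, by 3.22 to 4.09. Under carbon limitation the ethanol marker ADH2 was called higher on ethanol in the reference strain, by 0.23, and was not called in the mutant (0.08). It averaged 14.55 (reference) and 14.65 (mutant) in the glucose-limited groups, within the 14.53 to 14.78 of the 4 ethanol groups of both limitations. Under nitrogen limitation on glucose ADH2 averaged 9.66 in the reference strain and 9.44 in the mutant. Median log2 intensities of the 16 arrays lay between 11.91 and 12.01. The 2 arrays of a group correlated at 0.984 to 0.997 over all probe sets. All levels are given as log2 of the deposited intensity, all differences as log2 differences between group means with the standard error (SE) of the fit, and adjusted p-values come from limma with Benjamini-Hochberg adjustment over all 5716 probe sets. A difference was called when its adjusted p was below 0.05.

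The 3 genes of phosphate uptake, PHO84, PHO89 and SPL2, carried the widest differences. Their group means spanned 4.08, 4.33 and 2.22 log2 units, against a median span of 0.46 over all probe sets, and 99.5%, 99.6% and 97.1% of the probe sets had a narrower span. The phosphatase and VTC genes spanned less, from 0.33 for PHO5 to 0.79 for PHO3. Of the 12 comparisons between pairs of groups, PHO84 was called in 10, PHO3 in 9, PHO89 in 8, PHO8 in 7, SPL2, VTC3 and VTC4 in 6 each, VTC1 in 5, VTC2 in 3 and PHO5 in 0. Of all probe sets, 8.21% to 48.8% were called in each of these comparisons. These comparisons share groups with one another and are not independent.

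**Figure D1:**
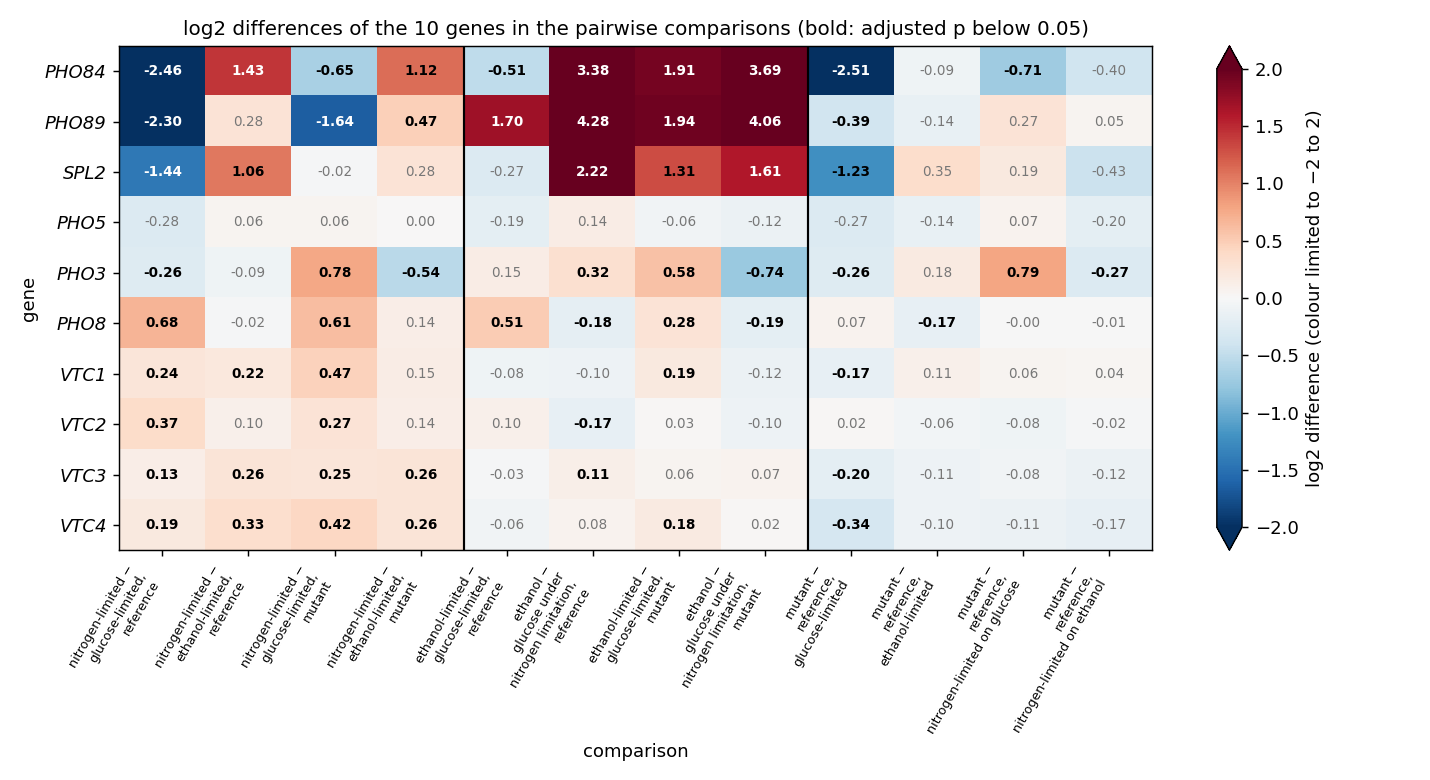
Log2 differences of the 10 genes (rows) in the 12 comparisons between pairs of groups (columns), with the colour limited to -2 to 2 and called values in bold. PHO84, PHO89 and SPL2 hold the widest differences, from -2.51 to 4.28, while the row of PHO5 holds no called value.

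Nitrogen limitation was compared with carbon limitation to ask how the limiting nutrient affects expression. On glucose, 9 of the 10 genes were called in the reference strain, 5 higher and 4 lower, where 43.6% of all probe sets were called, 21.4% higher and 22.2% lower. In the mutant strain 8 were called, 6 higher and 2 lower, against 48.8% of all probe sets, 25.2% higher and 23.6% lower. On ethanol fewer probe sets were called, 8.21% in the reference strain and 14.3% in the mutant strain. Of the 10 genes, 5 were called there in the reference strain, all higher, where 4.62% of all probe sets were higher. In the mutant 4 were called higher and 1 lower, against 6.53% and 7.79% of all probe sets. The median difference of the 10 genes on ethanol was 0.24 in the reference strain, against 0.02 over all probe sets, and 0.20 in the mutant strain, against -0.03. When any 1 array was left out, 6 to 9 genes were called in the reference strain on glucose and 3 to 5 on ethanol in each strain. When the spread came from the compared arrays alone, these counts were 5 in the reference strain on glucose and 1 in each strain on ethanol. Calls over all 5716 probe sets fell there too. They were 1341 in the reference strain on glucose, 16 on ethanol and 119 in the mutant on ethanol, against 2494, 469 and 818 in the main fit.

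Ethanol was compared with glucose within each limitation. Under carbon limitation 3 of the 10 genes were called in the reference strain, against 24.3% of all probe sets, and 7 in the mutant strain, against 31.9%. Under nitrogen limitation 7 were called in the reference strain, against 33.6%, and 5 in the mutant strain, against 42.5%. The reference counts were 2 and 4 to 6 when any 1 array was left out, and the second was 3 on the compared arrays alone. Of all probe sets, 627 were called in that last fit, against 1921 in the main fit. The strains were then set against each other condition by condition. The glucose-limited strains differed in 7 of the 10 genes, all lower in the mutant, where 18.2% of all probe sets were called and 8.80% were lower. That count was 4 to 5 when any 1 array was left out and 3 when the spread came from the compared arrays alone. On the compared arrays alone 239 of all probe sets were called, against 1041 in the main fit. The other conditions gave 1 called gene in the ethanol-limited cultures (24.8% of all probe sets), 2 in the nitrogen-limited cultures on glucose (21.1%) and 1 in those on ethanol (15.8%). When any 1 array was left out these counts were 0, 2 to 3 and 0 to 1.

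PHO84 encodes the high-affinity proton-coupled phosphate transporter of the plasma membrane and is a classic Pho4 target. In the reference strain its log2 intensities were 12.63 and 12.55 in the glucose-limited cultures, 9.94 and 10.33 under nitrogen limitation on glucose, 12.07 and 12.09 in the ethanol-limited cultures and 13.52 and 13.50 under nitrogen limitation on ethanol. The mutant gave, in the same order of conditions, 10.02 and 10.15, then 9.23 and 9.63, then 12.00 and 11.99, then 13.11 and 13.12. The gene was therefore highest in both strains under nitrogen limitation on ethanol and lowest under nitrogen limitation on glucose. In the order of the 8 group means, the arrays overlapped only between the glucose-limited mutant (10.08) and the nitrogen-limited reference strain on glucose (10.13).

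The direction of the limitation difference in PHO84 turned with the carbon source. In the reference strain PHO84 fell by 2.46 under nitrogen limitation on glucose (SE 0.132, 5.50-fold lower, adjusted p = 1.6e-07), and rose by 1.43 on ethanol (2.70-fold, adjusted p = 1.0e-04). The difference between these differences was 3.89 (SE 0.186, adjusted p = 2.3e-07), in a contrast where 24.5% of all probe sets and 5 of the 10 genes were called. The mutant strain also showed both directions, as PHO84 fell by 0.65 on glucose (adjusted p = 0.0021) and rose by 1.12 on ethanol (adjusted p = 4.8e-04). Quantile normalization of the deposited values brought the mutant's fall on glucose to -0.40 (adjusted p = 0.0067). The mutant's interaction was 1.78 (adjusted p = 4.2e-05), where 33.8% of all probe sets and again 5 of the 10 genes were called. In bulk cultures a smaller share of expressing cells and less RNA per cell cannot be told apart, here and for every gene below.

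Under nitrogen limitation PHO84 was 10.4-fold higher on ethanol than on glucose in the reference strain (log2 difference 3.38, adjusted p = 1.7e-08) and 12.9-fold higher in the mutant (3.69, adjusted p = 5.8e-09). Under carbon limitation it was lower on ethanol in the reference strain by a small margin, -0.51 (adjusted p = 0.017), and higher on ethanol in the mutant by 1.91 (adjusted p = 3.5e-06). The small reference difference was not called after any 1 of its 4 arrays was left out, with differences of -0.55 to -0.47 and adjusted p of 0.054 to 0.089.

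PHO89 encodes a sodium-coupled phosphate transporter that works best at alkaline pH. Its log2 intensities in the reference strain were 11.60 and 11.46 in the glucose-limited cultures, 9.06 and 9.41 under nitrogen limitation on glucose, 13.21 and 13.26 in the ethanol-limited cultures and 13.48 and 13.54 under nitrogen limitation on ethanol. The mutant strain had 11.17 and 11.12, then 9.42 and 9.59, then 13.17 and 13.01, then 13.59 and 13.54. All 8 ethanol arrays lay above all 8 glucose arrays, in both strains and under both limitations.

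PHO89 was higher on ethanol in each of the 4 comparisons with glucose. Under carbon limitation the rise was 3.25-fold in the reference strain and 3.84-fold in the mutant (adjusted p = 1.8e-06 and 5.8e-07). Under nitrogen limitation it was 19.4-fold and 16.7-fold (adjusted p = 5.1e-10 and 5.4e-10). On glucose PHO89 was lower under nitrogen limitation, by -2.30 in the reference strain (SE 0.106, adjusted p = 5.3e-08) and by -1.64 in the mutant (adjusted p = 5.4e-07). On ethanol the difference was 0.28 in the reference strain, which was not called, and 0.47 in the mutant (adjusted p = 0.017). The mutant's value was not called without replicate 2 of its ethanol-limited arrays (0.39, adjusted p = 0.14), nor without replicate 1 (0.45, adjusted p = 0.075) or replicate 2 (0.50, adjusted p = 0.083) of its nitrogen-limited arrays on ethanol. The difference on ethanol exceeded that on glucose by 2.58 in the reference strain and by 2.12 in the mutant (adjusted p = 9.9e-07 and 2.2e-06).

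SPL2 encodes a small protein made during phosphate starvation that restrains low-affinity phosphate uptake through Pho87. Its log2 intensities in the reference strain were 9.74 and 9.54 in the glucose-limited cultures, 7.92 and 8.49 under nitrogen limitation on glucose, 9.21 and 9.53 in the ethanol-limited cultures and 10.40 and 10.46 under nitrogen limitation on ethanol. In the mutant strain they were 8.33 and 8.50, then 8.19 and 8.60, then 9.64 and 9.80, then 10.02 and 9.98. As with PHO84, both strains were highest under nitrogen limitation on ethanol. Unlike those of PHO84, the SPL2 arrays of the 2 nitrogen-limited glucose groups overlapped. SPL2 lay in the dimmest 25% of the probe sets by mean level, and its SE of 0.189 was the widest of the 10 genes.

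In the reference strain SPL2 fell by 1.44 under nitrogen limitation on glucose (2.71-fold lower, adjusted p = 1.5e-04) and rose by 1.06 on ethanol (adjusted p = 0.0068), an interaction of 2.49 (SE 0.268, adjusted p = 9.0e-05). The rise on ethanol was 0.90 and was not called without replicate 1 of the ethanol-limited arrays (adjusted p = 0.067). Neither limitation difference of SPL2 was called in the mutant, with -0.02 on glucose (95% confidence interval -0.44 to 0.40) and 0.28 on ethanol (-0.15 to 0.70). On ethanol against glucose under nitrogen limitation, SPL2 was 4.67-fold higher in the reference strain (adjusted p = 8.8e-06) and 3.04-fold higher in the mutant (adjusted p = 7.8e-05). Under carbon limitation the value was -0.27 in the reference strain, which was not called, and 1.31 in the mutant (2.48-fold, adjusted p = 6.2e-04).

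**Figure D2:**
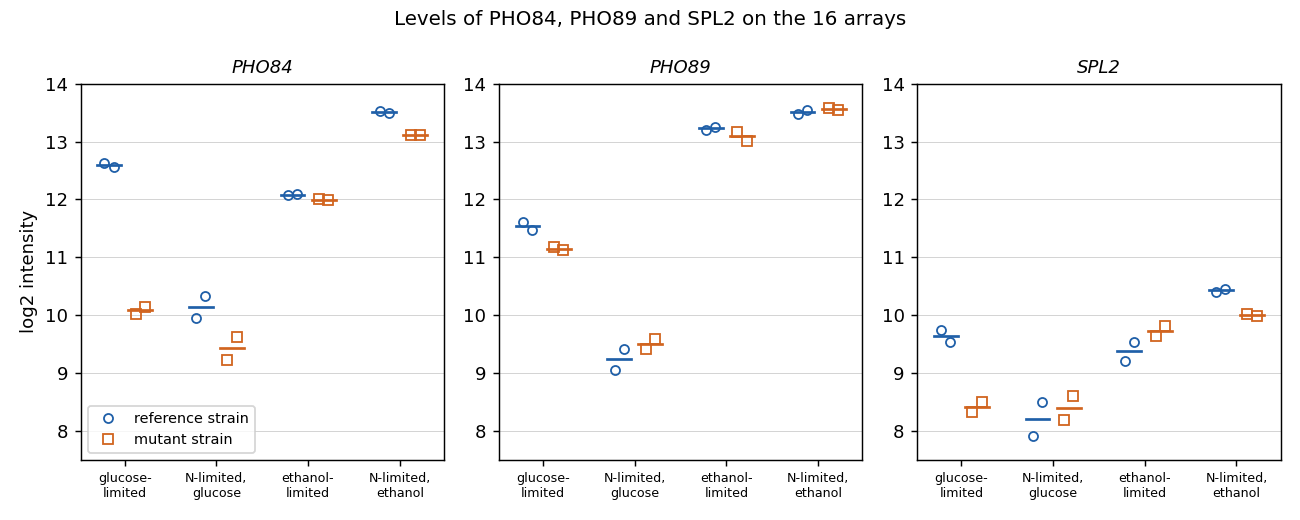
Log2 intensity of PHO84, PHO89 and SPL2 on each of the 16 arrays (points) in the 4 conditions, with the strains in separate colours and group means as lines. The glucose-limited arrays of PHO84 separate the strains, at 12.55 to 12.63 in the reference strain and 10.02 to 10.15 in the mutant.

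The strains differed in PHO84 and SPL2 mainly in the glucose-limited cultures. There PHO84 was 5.70-fold lower in the mutant (log2 difference -2.51, SE 0.132, adjusted p = 2.7e-06) and SPL2 was 2.34-fold lower (-1.23, adjusted p = 0.0021), and in both genes the 2 arrays of one strain did not overlap those of the other. In the ethanol-limited cultures the strain difference was -0.09 for PHO84 (95% confidence interval -0.38 to 0.21) and 0.35 for SPL2 (-0.07 to 0.77), and neither was called. A contrast of the strain differences between the carbon sources under carbon limitation, chosen after the values were seen, gave 2.42 for PHO84 (SE 0.186, adjusted p = 1.9e-05) and 1.58 for SPL2 (adjusted p = 0.0027). It called 6 of the 10 genes and 21.3% of all probe sets.

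Under nitrogen limitation on glucose PHO84 was lower in the mutant by -0.71 (1.63-fold, adjusted p = 0.0041), a value that stayed called when any 1 array was left out but had an adjusted p of 0.11 when the spread came from those 4 arrays alone. On ethanol it was -0.40 (adjusted p = 0.068). SPL2 was not called in either nitrogen-limited comparison of the strains. With the description's replicate numbers as a block within each strain, chosen after seeing the data, both genes were called on ethanol, PHO84 at -0.40 (adjusted p = 0.033) and SPL2 at -0.43 (adjusted p = 0.032). The limitation difference on glucose differed between the strains by 1.81 for PHO84 (adjusted p = 1.0e-04) and by 1.42 for SPL2 (SE 0.268, adjusted p = 0.0045), in a contrast where 20.7% of all probe sets and 5 of the 10 genes were called.

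PHO89 differed less between the strains. In the glucose-limited cultures it was lower in the mutant by -0.39 (adjusted p = 0.032). This value was -0.46 to -0.32 and was not called after any 1 of its 4 arrays was left out (adjusted p of 0.066 to 0.14). The other strain differences of PHO89 ran from -0.14 to 0.27, and none was called. Its limitation difference on glucose differed between the strains by 0.65 (SE 0.150, adjusted p = 0.013). Without replicate 2 of the mutant's nitrogen-limited arrays on glucose that value was 0.57 (adjusted p = 0.054).

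**Figure D3:**
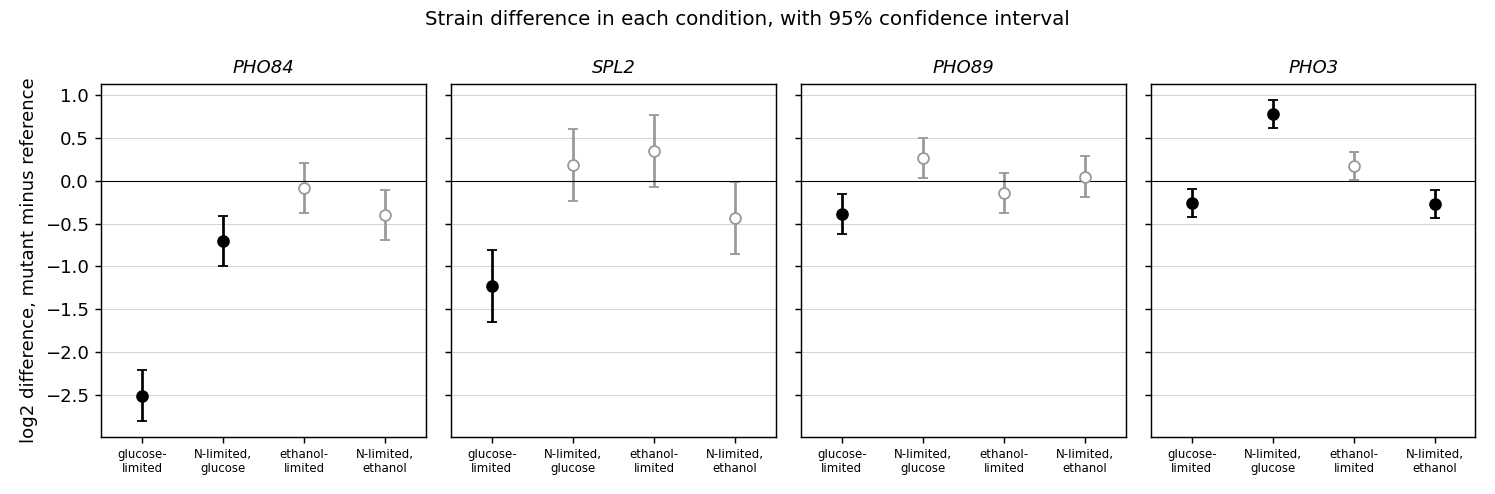
Log2 difference between the mutant and the reference strain (vertical axis) in the 4 conditions, 1 panel per gene, with bars for the 95% confidence interval. PHO84 (-2.51) and SPL2 (-1.23) stand lowest in the glucose-limited cultures, and PHO3 stands highest under nitrogen limitation on glucose (0.79).

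PHO5 encodes the secreted acid phosphatase that is the best-known reporter of phosphate starvation in yeast. Its log2 intensities in the reference strain were 10.75 and 10.92 in the glucose-limited cultures, 10.67 and 10.44 under nitrogen limitation on glucose, 10.75 and 10.54 in the ethanol-limited cultures and 10.80 and 10.60 under nitrogen limitation on ethanol. The mutant had 10.49 and 10.64, then 10.60 and 10.65, then 10.48 and 10.52, then 10.49 and 10.51. The 8 group means spanned 10.50 to 10.83, a span narrower than that of most probe sets, and 28.0% of the probe sets had a narrower one. None of the 12 limma comparisons called PHO5, with differences from -0.28 to 0.14 and an SE of 0.104. Its lowest adjusted p was 0.054, in the reference strain for the limitation difference on glucose (-0.28, 95% confidence interval -0.51 to -0.04). With the replicate numbers of the descriptions as a block within each strain, chosen after seeing the data, PHO5 was called in 7 of the 12 comparisons. The limitation difference of -0.28 in the reference strain on glucose then had an adjusted p of 3.2e-04, and the strain difference of -0.27 in the glucose-limited cultures one of 0.0015. In this fit 54.8% and 34.1% of all probe sets were called in these comparisons. PHO5 also lay in the dimmest 25% of the probe sets.

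PHO3 lies next to PHO5 on the chromosome in the RefSeq annotation and encodes a related acid phosphatase that is controlled by thiamine rather than by phosphate. Its log2 intensities in the reference strain were 10.35 and 10.39 in the glucose-limited cultures, 10.07 and 10.13 under nitrogen limitation on glucose, 10.55 and 10.48 in the ethanol-limited cultures and 10.44 and 10.40 under nitrogen limitation on ethanol. In the mutant strain they were 10.02 and 10.20, then 10.83 and 10.94, then 10.64 and 10.74, then 10.07 and 10.24. The mutant was thus highest where the reference strain was lowest, under nitrogen limitation on glucose. As acid phosphatase genes share sequence, cross-hybridisation between them was not tested.

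PHO3 in the mutant rose by 0.78 under nitrogen limitation on glucose (SE 0.0735, adjusted p = 1.0e-05) and fell by 0.54 on ethanol (adjusted p = 0.0013), an interaction of -1.32 (SE 0.104, adjusted p = 5.0e-06). In the reference strain the difference on glucose was -0.26 (adjusted p = 0.014), which was -0.24 and not called without replicate 2 of the glucose-limited arrays (adjusted p = 0.073) and -0.23 and not called without replicate 1 of the nitrogen-limited arrays (adjusted p = 0.078). Between the strains, PHO3 was 1.72-fold higher in the mutant under nitrogen limitation on glucose (0.79, adjusted p = 4.6e-05). The limitation difference on glucose differed between the strains by 1.04 (adjusted p = 8.2e-05).

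PHO3 was the only one of the 10 genes called in the contrast of the limitation differences between strains on ethanol (-0.45, adjusted p = 0.034, 6.23% of all probe sets called). That call was lost in 6 of the 8 fits that left out 1 array, with values of -0.53 to -0.36 and adjusted p up to 0.13. It was also the only one called in the contrast of the strain differences between carbon sources under nitrogen limitation (-1.06, adjusted p = 2.5e-04, 5.72% called), which was added after the values were seen and kept its call in all 8 such fits. The lower PHO3 values of the mutant in the glucose-limited cultures (-0.26, adjusted p = 0.036) and under nitrogen limitation on ethanol (-0.27, adjusted p = 0.034) were each lost in 3 of the 4 fits without 1 array. They ranged from -0.35 to -0.17 and from -0.35 to -0.19, with adjusted p up to 0.23 and 0.20. The calls stayed only without replicate 2 of the mutant in each case.

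PHO8 encodes the vacuolar alkaline phosphatase. Its log2 intensities were lowest in the glucose-limited cultures, at 12.42 and 12.48 in the reference strain and 12.51 and 12.52 in the mutant. Under nitrogen limitation on glucose they were 13.18 and 13.08 in the reference strain and 13.13 and 13.13 in the mutant. The 4 ethanol groups lay between, at 12.79 to 12.99. PHO8 thus moved opposite to PHO84 and PHO89 on glucose. It rose under nitrogen limitation by 0.68 in the reference strain (SE 0.0458, adjusted p = 9.9e-07) and by 0.61 in the mutant (adjusted p = 1.8e-06), and was not called on ethanol in either strain, at -0.02 and 0.14. The interactions were -0.70 and -0.47 (SE 0.0648, adjusted p = 3.1e-05 and 3.1e-04). Against glucose under carbon limitation, PHO8 was higher on ethanol by 0.51 in the reference strain (adjusted p = 2.5e-05) and by 0.28 in the mutant (adjusted p = 0.0014). Under nitrogen limitation it was lower on ethanol, by -0.18 in the reference strain (adjusted p = 0.012) and by -0.19 in the mutant (adjusted p = 0.0073). The reference value was not called without replicate 1 of the glucose arrays (-0.13, adjusted p = 0.087) or replicate 2 of the ethanol arrays (-0.14, adjusted p = 0.086), and the mutant value was not called without replicate 1 of the ethanol arrays (-0.16, adjusted p = 0.070). Its only called strain difference, -0.17 in the ethanol-limited cultures (adjusted p = 0.024), was not called after any 1 of its 4 arrays was left out (adjusted p of 0.072 to 0.11).

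The VTC complex makes polyphosphate from ATP and moves it into the vacuole. VTC4 is its catalytic subunit, VTC1 a small membrane subunit, and VTC2 and VTC3 accessory subunits that define alternative forms of the complex. The 4 VTC genes had log2 intensities of 11.78 or more on every array. VTC4 had the log2 intensities 12.55 and 12.53 in the glucose-limited reference strain, 12.65 and 12.80 under nitrogen limitation on glucose, 12.43 and 12.52 in the ethanol-limited cultures and 12.79 and 12.82 under nitrogen limitation on ethanol. In the mutant it had 12.20 and 12.19, then 12.63 and 12.60, then 12.40 and 12.35, then 12.66 and 12.62. The glucose-limited mutant was the lowest group, and in each pair of a carbon-limited and a nitrogen-limited group the nitrogen-limited arrays were the higher ones. VTC3 had 11.98 and 11.98, 12.10 and 12.11, 11.98 and 11.92, and 12.26 and 12.17 in the same order in the reference strain, and 11.78 and 11.79, 12.02 and 12.04, 11.86 and 11.83, and 12.10 and 12.10 in the mutant. Its lowest group was likewise the glucose-limited mutant. VTC1 ran from 13.33 on a glucose-limited array to 13.84 on a nitrogen-limited glucose array, both of the mutant, and VTC2 from 12.50 to 12.93 on arrays of the same 2 conditions in the reference strain.

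VTC genes were called higher under nitrogen limitation than under carbon limitation in each of the 4 comparisons, and none was called lower. Of all probe sets, 21.4% in the reference strain and 25.2% in the mutant were called higher on glucose, and 4.62% and 6.53% on ethanol. On glucose in the mutant all 4 were higher, VTC1 by 0.47, VTC4 by 0.42, VTC2 by 0.27 and VTC3 by 0.25, with a median of 0.34 against 0.00 over all probe sets. On glucose in the reference strain all 4 were called too, with a median of 0.21. VTC2 rose there by 0.37 (adjusted p = 8.9e-05) and VTC1 by 0.24 (adjusted p = 0.0016). When the spread came from the compared arrays alone, VTC2 stayed called. VTC1, VTC3 and VTC4 were not called in that fit (adjusted p = 0.071, 0.20 and 0.17). The rise of VTC3 by 0.13 (adjusted p = 0.021) was not called after any 1 of its 4 arrays was left out (adjusted p of 0.060 to 0.080). That of VTC4 by 0.19 (adjusted p = 0.014) was not called without replicate 2 of the glucose-limited arrays (0.18, adjusted p = 0.072) or without replicate 2 of the nitrogen-limited arrays (0.11, adjusted p = 0.11).

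On ethanol 3 VTC genes were called higher under nitrogen limitation in the reference strain, VTC4 by 0.33 (adjusted p = 0.0034), VTC3 by 0.26 (adjusted p = 0.0019) and VTC1 by 0.22 (adjusted p = 0.016). The VTC1 call was lost without replicate 1 or replicate 2 of the ethanol-limited arrays (0.19 and 0.24, adjusted p = 0.11 and 0.053) and without replicate 2 of the nitrogen-limited arrays (0.18, adjusted p = 0.11). In the mutant VTC3 was called at 0.26 (adjusted p = 0.0021) and VTC4 at 0.26 (adjusted p = 0.010). The VTC4 call was lost without replicate 2 of the ethanol-limited arrays (0.23, adjusted p = 0.085) and without replicate 1 or replicate 2 of the nitrogen-limited arrays (0.24 and 0.28, adjusted p = 0.058 and 0.051). The calls of VTC3 and VTC4 on ethanol in both strains were not made when the spread came from the compared arrays alone (adjusted p of 0.070 to 0.21).

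**Figure D4:**
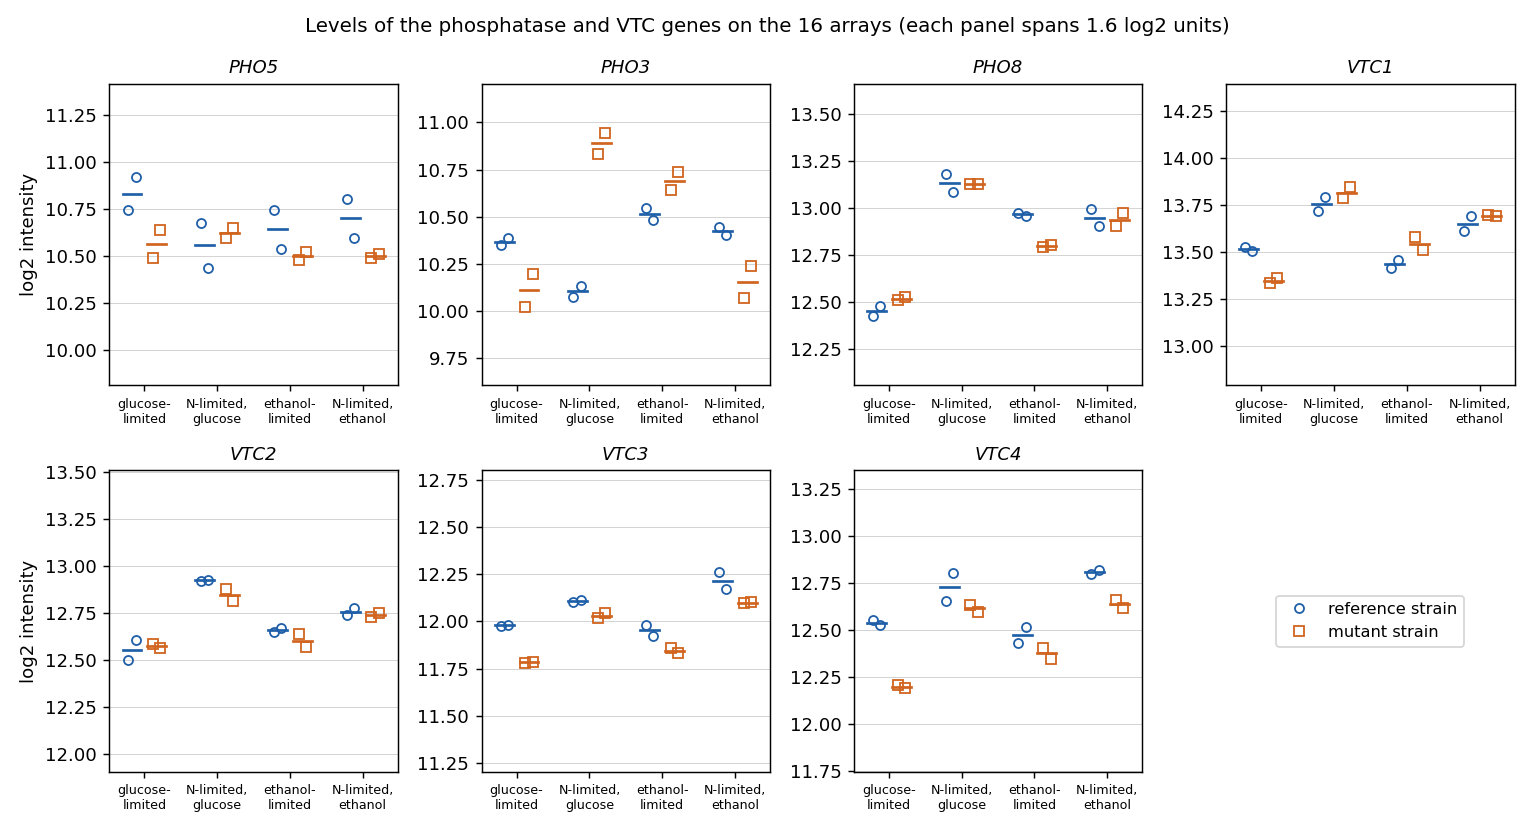
Log2 intensity of the 3 phosphatase genes and the 4 VTC genes on each of the 16 arrays (points) in the 4 conditions, with the strains in separate colours and group means as lines. All panels span the same number of log2 units, so that PHO5 (means of 10.50 to 10.83, not called in the main fit) can be set against PHO8 on glucose.

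The carbon source gave few VTC calls. VTC3 and VTC2 were called in opposite directions under nitrogen limitation in the reference strain (0.11 and -0.17), and VTC1 and VTC4 were called higher on ethanol in the carbon-limited mutant (0.19 and 0.18). All 4 of these calls were lost on leaving out at least 2 of the 4 arrays in turn, and the highest adjusted p in those fits were 0.29 for VTC3, 0.092 for VTC2, 0.062 for VTC1 and 0.13 for VTC4. Between the strains, VTC4 was lower in the glucose-limited mutant by -0.34 (SE 0.0525, adjusted p = 0.0021) and VTC3 by -0.20 (adjusted p = 0.0067), and both stayed called without any 1 array. VTC1 was called at -0.17 (adjusted p = 0.030) and was not called after any 1 of its 4 arrays was left out (adjusted p of 0.089 to 0.14). On the compared arrays alone VTC4 stayed called between the glucose-limited strains. VTC3 was not called there (adjusted p = 0.099), nor was VTC1 (adjusted p = 0.13). In the other 3 conditions no VTC gene was called between the strains, with differences of -0.17 to 0.11.

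The 10 genes did not move as 1 block. Over the 8 group means, PHO84 correlated with SPL2 at 0.97 and with PHO89 at 0.87, VTC3 with VTC4 at 0.98, and PHO8 with VTC2 at 0.89, whereas PHO84 correlated with PHO5 at 0.27, with PHO3 at -0.12 and with VTC2 at -0.34. These are descriptions over 8 groups from the same 16 arrays. Outside the 10 genes, the patterns most like PHO89 were those of ICL1 (Pearson correlation 0.99 over the 8 group means) and RKI1, the ribose-5-phosphate ketol-isomerase (0.98), whose means spanned 3.35 and 2.28 log2 units. For PHO84 they were AIM45 (0.98, span 0.20) and IMP2 (0.96, span 0.68), and for SPL2 AIM45 (0.94) and CUP9 (0.92, span 0.35), so that none of these genes had a span near that of PHO84 or SPL2. For PHO3 the nearest patterns were weaker, with NBP35 at 0.87 and RPL33B at 0.87.

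Of the 7 measured genes of phosphate signalling, 3 were called higher under nitrogen limitation on glucose in the reference strain, PHO81, PHO85 and KCS1, where 21.4% of all probe sets were higher, and none was called lower. Their median difference was 0.16, against 0.00 over all probe sets. The same 3 were called higher in the mutant, where 25.2% of all probe sets were higher and PHO85 rose by 0.37 (adjusted p = 6.4e-05). KCS1 encodes an inositol hexakisphosphate kinase of this pathway and was called at 0.37 in the reference strain (adjusted p = 0.029). The calls of PHO81 and KCS1 in the reference strain were lost without replicate 2 of the glucose-limited arrays (0.22 and 0.24, adjusted p = 0.17 and 0.20) and without replicate 2 of the nitrogen-limited arrays (0.16 and 0.30, adjusted p = 0.21 and 0.15). In the mutant the KCS1 call was lost without any 1 of the 4 arrays (adjusted p up to 0.25), and that of PHO81 without replicate 2 of the glucose-limited arrays (0.32, adjusted p = 0.059) or replicate 1 of the nitrogen-limited ones (0.32, adjusted p = 0.062). Between the strains the only signalling gene called in any condition was PHO4, higher in the mutant by 0.92 under nitrogen limitation on glucose (SE 0.177, adjusted p = 0.0048). Its intensities were 11.62 and 11.93 in the reference strain and 12.62 and 12.77 in the mutant. In the glucose-limited cultures, where PHO84 and SPL2 were lower in the mutant, PHO4 stood at 0.40 higher without being called (adjusted p = 0.15), and none of the 7 signalling genes was called.

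Of the 5 other genes of phosphate uptake and release, 2 were called higher under nitrogen limitation in the reference strain on each carbon source, GIT1 and SYG1, against 21.4% of all probe sets on glucose and 4.62% on ethanol. GIT1, the glycerophosphoinositol transporter, rose by 0.91 on ethanol (adjusted p = 5.6e-04). Its intensities were 9.47 and 9.37 in the ethanol-limited cultures and 10.38 and 10.27 in the nitrogen-limited ones. On glucose its value of 0.37 was not called without replicate 1 of the glucose-limited arrays (0.33, adjusted p = 0.093) or replicate 2 of the nitrogen-limited arrays (0.23, adjusted p = 0.14). GIT1 was lower in the mutant under nitrogen limitation on glucose by -0.49 (adjusted p = 0.011), which was -0.34 and not called without replicate 2 of the reference arrays (adjusted p = 0.069) and -0.41 and not called without replicate 1 of the mutant arrays (adjusted p = 0.079). PHO91, the vacuolar phosphate transporter, rose by 0.61 under nitrogen limitation on glucose in the mutant (adjusted p = 3.4e-04). In the glucose-limited cultures 0 of these 5 genes were called by limma between the strains, against 18.2% of all probe sets.

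Of the 6 measured genes among other targets and phosphatases of the pathway, 4 were called under nitrogen limitation on glucose in the reference strain, 3 higher and 1 lower, where 43.6% of all probe sets were called, 21.4% higher and 22.2% lower. PHM6 (0.94) and PHM7 (0.98), named for their response to phosphate, were higher there (adjusted p = 2.1e-04 and 4.0e-05), opposite to PHO84, and GDE1, a glycerophosphocholine phosphodiesterase, was lower (-0.65, adjusted p = 3.0e-04). Between the glucose-limited strains PHM7 was higher in the mutant by 1.03 (adjusted p = 2.0e-04), also opposite to PHO84. PHO13, a phosphatase gene of the same list, was lower there by -0.24 (adjusted p = 0.0070), the direction of PHO84, and PHM6 stood at -0.37 without being called (adjusted p = 0.074). PHM6 and PHM7 also went with PHO84 in some comparisons. PHM6 was called higher on ethanol in the carbon-limited mutant (0.87), and PHM7 higher under nitrogen limitation in the mutant on ethanol (0.97). Against PHO84, PHM6 rose under nitrogen limitation on glucose in the mutant (0.72), and PHM7 was lower on ethanol in the carbon-limited mutant (-0.54). Over the 8 group means PHO84 correlated with PHM6 at 0.09 and with PHM7 at -0.02. PHO11, a further acid phosphatase whose probe set can match family members, was called higher on ethanol in the nitrogen-limited reference strain (0.29, adjusted p = 0.0046) and higher in the mutant under nitrogen limitation on glucose (0.21, adjusted p = 0.039), the latter not without any 1 of its 4 arrays (adjusted p of 0.088 to 0.17). Of the 3 measured polyphosphate-degrading genes, the exopolyphosphatase PPX1 was called higher under nitrogen limitation on glucose in both strains, by 0.45 in the mutant (adjusted p = 0.0020) and by 0.31 in the reference strain. The reference value was not called without replicate 2 of the glucose-limited arrays (0.25, adjusted p = 0.11) or replicate 2 of the nitrogen-limited arrays (0.28, adjusted p = 0.081). PHO86, needed for PHO84 to leave the endoplasmic reticulum, fell by 0.31 under nitrogen limitation on glucose in the reference strain (adjusted p = 0.0019) and was 0.35 higher on ethanol than on glucose there (adjusted p = 0.0013), the directions that PHO84 showed. PHO88, which also serves the maturation of PHO84, was called the other way in both comparisons, at 0.21 (adjusted p = 0.0015) and -0.16 (adjusted p = 0.011). The second of these calls was lost without replicate 1 of the nitrogen-limited arrays on glucose (-0.14, adjusted p = 0.067) or replicate 2 of those on ethanol (-0.15, adjusted p = 0.054).

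**Figure D5:**
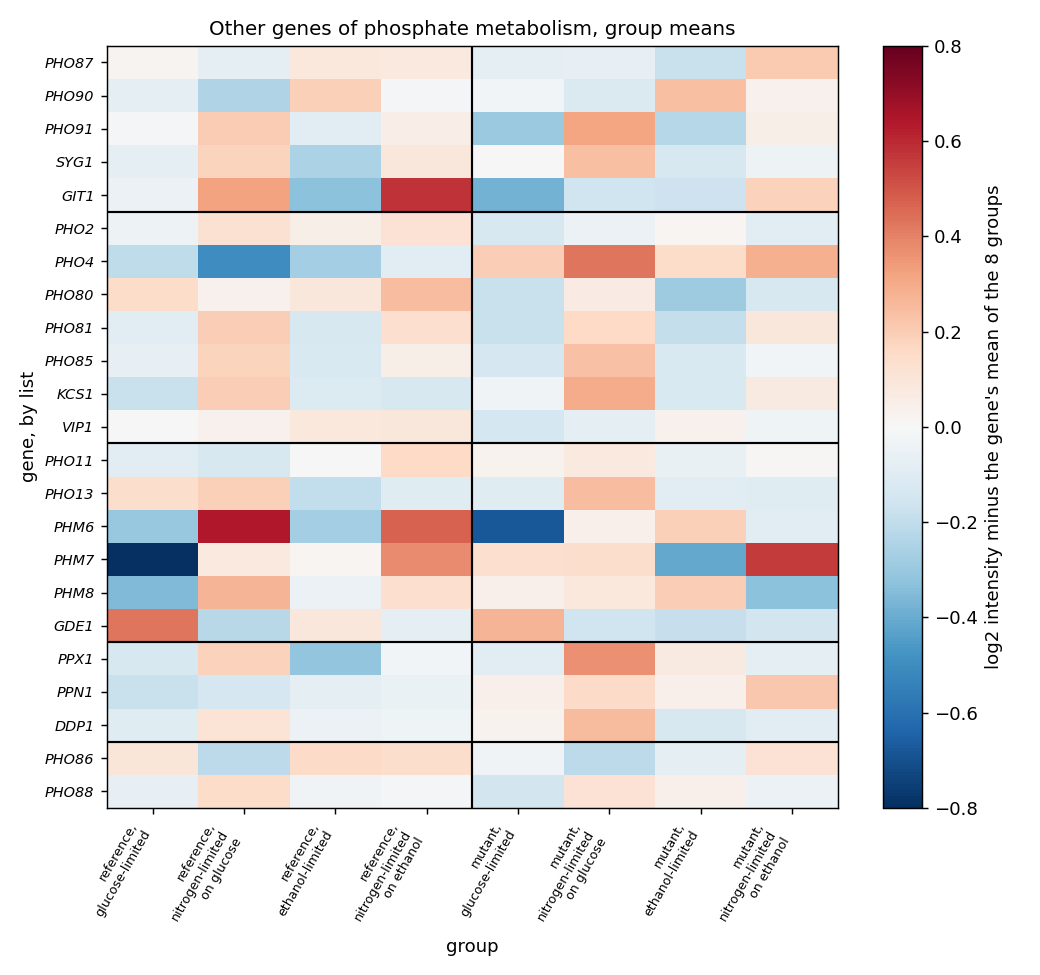
Group means of the other genes of phosphate metabolism (rows, by list) in the 8 groups (columns), as log2 intensity minus each gene's mean over the groups. PHM6 and PHM7 are higher in the nitrogen-limited than in the glucose-limited reference strain on glucose, by 0.94 and 0.98, where PHO84 fell by 2.46. In the carbon-limited mutant PHM6 is higher on ethanol than on glucose by 0.87, where PHO84 rose by 1.91.

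Thiamine genes were measured beside PHO3, since PHO3 is under thiamine control. Of 13 measured genes, 9 were called under nitrogen limitation on glucose in the mutant, 4 higher and 5 lower, where PHO3 rose by 0.78 and 48.8% of all probe sets were called, 25.2% higher and 23.6% lower. THI13 and THI4, enzymes of thiamine precursor synthesis, were lower there, as THI13 fell by 2.00 and THI4 fell by 1.55 (adjusted p = 1.1e-08 and 6.5e-07), opposite to PHO3. The probe set of THI13 can match other members of its family. Between the strains under nitrogen limitation on ethanol, THI4 was lower in the mutant by -1.82 (adjusted p = 1.6e-06) and PHO3 by -0.27. Over the 8 group means PHO3 correlated with THI4 at -0.28 and with THI13 at -0.35. Over all 13 genes its correlations ran from -0.44 with THI72 to 0.52 with THI7. THI80 (1.09, adjusted p = 1.0e-07) and THI7 (0.29, adjusted p = 0.0031) were called higher under nitrogen limitation on glucose in the mutant, as PHO3 was. THI7, THI72 and THI80 are named here after their values were seen.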

How the data were processed

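Gene expression was measured on Affymetrix yeast arrays, 2 for each of 8 groups of strain, carbon source and limitation. The deposited values are linear intensities, 1 per probe set and array, which the authors summarized across arrays. GCRMA is the tool that the submitters' processing notes name, without a version, and the sources used here do not give the step that led to linear values. The lowest intensity was 1 (5 values). All columns were used, and the log2 of each value was taken with no offset. Genes were named through the platform's probe table, with 12 symbols updated.

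The 16 arrays were fitted together, with 1 mean per group, by limma 3.58.1 in R 4.3.3, with eBayes moderation (8 residual and 2.01 prior degrees of freedom), so that all groups shared 1 estimate of the spread. Benjamini-Hochberg adjustment ran over all 5716 probe sets with a threshold of 0.05. The comparisons were 12 between pairs of groups and 6 interactions, 2 of which were added after the values were seen. The method was tested on simulated data. The 10 genes, the lists and the comparisons were chosen with earlier results of these data known. All 10 genes are described, any gene of a list of at most 7 could be named with its values, and not all are, from the thiamine list the 2 with the largest called differences in each kind of comparison, and for likeness the 2 highest correlations for the 4 genes of widest span. Precision is limited by how many arrays there are and by signal over background. Alternatives were an offset of 50, median centring, quantile normalization, leaving out the dimmest 25% of the probe sets, fits on the compared arrays alone, replicate numbers as a block, and leaving out each array in turn. For the glucose-limited reference arrays the replicate numbers in title and description are swapped, and the title's were used. Same-numbered arrays of the reference strain deviated together with the description's numbers (correlations of 0.35 to 0.68 over 6 pairs of groups), those of the mutant less so (0.02 to 0.29). No label says what a number marks, so the block was kept as an alternative.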

Additional observations from a re-analysis of the deposited data

Results flagged for a closer look

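In 23 cases, over 10 genes and 6 interactions, the difference between conditions itself depended on the strain or the carbon source. The test was limma's for the interaction, with Benjamini-Hochberg adjustment over all probe sets. Each interaction called 5.72% to 33.8% of all probe sets. Groups of 2 arrays allow no search for single outlying arrays. The limitation difference (nitrogen minus carbon) on ethanol minus that on glucose in the reference strain was 3.89 for PHO84, 2.58 for PHO89, 2.49 for SPL2, -0.70 for PHO8 and -0.27 for VTC2 (adjusted p = 0.011 for VTC2 and lower for the others). The same quantity in the mutant strain was 1.78 for PHO84, 2.12 for PHO89, -1.32 for PHO3, -0.47 for PHO8 and -0.32 for VTC1 (adjusted p = 0.0036 for VTC1 and lower for the others).

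The limitation difference on glucose in the mutant minus that in the reference strain was 1.81 for PHO84, 1.42 for SPL2, 1.04 for PHO3, 0.65 for PHO89 and 0.23 for VTC1 (adjusted p = 0.031 for VTC1). On ethanol it was -0.45 for PHO3 (adjusted p = 0.034). The strain difference (mutant minus reference) on ethanol minus that on glucose, examined after the values were seen, was 2.42 for PHO84, 1.58 for SPL2, 0.43 for PHO3, 0.28 for VTC1, 0.24 for VTC4 and -0.24 for PHO8 under carbon limitation, and -1.06 for PHO3 under nitrogen limitation. The values of VTC4 and PHO8 had adjusted p of 0.042 and 0.028, and each lost its call in 7 of 8 fits without 1 array, with values of 0.20 to 0.29 and of -0.26 to -0.21. PHO3 at 0.43 lost it in 3 of 8 (0.35 to 0.52) and VTC1 at 0.23 in 6 of 8 (0.19 to 0.26).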

How the results depend on the processing

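Of the 83 called differences and interactions of the 10 genes, 46 kept their call under every alternative and none changed sign. Fits on the compared arrays alone lost 30 of the 83 calls, and 9 of 13 were lost there with the title block. Of the 131 called differences of the genes in the other lists, 46 kept their call under every alternative, and none changed sign. SPL2, PHO5 and PHO3 lie in the dimmest 25% and gave no value without it. Quantile normalization and median centring moved the median of all probe sets by at most 0.06 and 0.07.

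Counts of the 10 genes called moved by over 1.5 times as follows. The cause was not tested, except that the fits without the dimmest 25% held no PHO3. With median centring the counts were 8 for limitation in the mutant on ethanol, 2 and 0 for the strains ethanol-limited and nitrogen-limited on ethanol, and 0 for limitation by strain on ethanol. In that order, 986, 1458, 941 and 360 of all probe sets were called, against 818, 1417, 902 and 356 in the main fit. Quantile normalization gave 2 for the ethanol-limited strains and 0 for limitation by strain on ethanol, where 1464 and 397 of all probe sets were called. Without the dimmest 25% the counts were 1 for the strains nitrogen-limited on glucose, 0 for limitation by strain on ethanol and 0 for strain by carbon source under nitrogen limitation. Of the probe sets kept, 1005, 318 and 306 were called in these contrasts. In the main fit PHO3 was called in each of these contrasts. All 60 calls of the genes still measured stayed. On the compared arrays alone the counts were 5 and 1 for limitation in the reference strain on glucose and ethanol, 1 in the mutant on ethanol, 3 for carbon source in the nitrogen-limited reference strain, 3, 0, 1 and 2 for the strains glucose-limited, ethanol-limited and nitrogen-limited on glucose and ethanol, and 3 and 0 for limitation by strain on glucose and ethanol. Of all probe sets these fits called 1341, 16, 119, 627, 239, 165, 472, 147, 748 and 128, in that order. The main fit called 2494, 469, 818, 1921, 1041, 1417, 1206, 902, 1182 and 356.

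Leaving out 1 array gave 6 to 9 and 3 to 5 called genes for limitation in the reference strain on glucose and ethanol, 8 to 8 and 3 to 5 in the mutant, 2 to 2 and 4 to 6 for carbon source in the carbon-limited and nitrogen-limited reference strain, 5 to 6 and 4 to 5 in the mutant, 4 to 5, 0 to 0, 2 to 3 and 0 to 1 for the strains in the 4 conditions above, 5 to 6 and 5 to 5 for limitation by carbon source in the reference strain and the mutant, 3 to 6 and 0 to 1 for limitation by strain on glucose and ethanol, and 3 to 5 and 1 to 1 for strain by carbon source under carbon and nitrogen limitation.

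Deviations of same-numbered arrays correlated from -0.68 to 0.66 over 28 pairs of groups with the title numbers and from -0.47 to 0.68 with the description numbers, whose 16 pairs between strains gave -0.47 to 0.24. With the title numbers as a replicate block, 81 of the 83 calls stayed. With the description numbers as a block the counts were 3 for the strains nitrogen-limited on ethanol and 2 for limitation by strain on ethanol. Of all probe sets 1139 and 456 were called there, against 902 and 356 in the main fit. With the description numbers as a block within each strain, chosen after seeing the data, all 83 calls stayed and more were made. The counts were 8 for limitation in the mutant on ethanol, 5 for carbon source in the carbon-limited reference strain, 5, 4 and 6 for the strains ethanol-limited and nitrogen-limited on glucose and ethanol, 8 for limitation by carbon source in the reference strain, 3 for limitation by strain on ethanol and 2 for strain by carbon source under nitrogen limitation. In that order, this fit called 31.9%, 38.4%, 41.8%, 36.1%, 32.0%, 37.5%, 18.1% and 13.9% of all probe sets. In fits of the compared arrays, chosen after seeing the data, the title block gave 4 for limitation in the reference strain on glucose, 0 for carbon source in the carbon-limited reference strain and 0 for the strains nitrogen-limited on ethanol, and crossed numbers gave 6 for the second and 0 for the last. Of all probe sets, the title block called 536, 11 and 0 in these fits, and crossed numbers called 2295 and 10.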
